A study of Homo sapiens with 6 samples.

Results

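The genes that encode Mediator and the general transcription factors of RNA polymerase II (Pol II) were compared between DLD-1 cells carrying an ARMC5 shRNA (shARMC5) and cells carrying a nontargeting shRNA (shNT). Transcripts of the files could be matched to 35810 genes in all. Members were taken by gene symbol, and the rule found 75 genes. They comprised 33 Mediator genes, 25 TAF genes and TBP, 7 genes of TFIIA, TFIIB, TFIIE and TFIIF, and 10 genes of TFIIH with its CDK-activating kinase (CAK). Of the 75 genes, 74 had transcripts in the files, 72 had at least 10 estimated reads in at least 3 libraries and were tested, and MED22 was not analysed here.

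DLD-1 is a colorectal adenocarcinoma cell line. All 6 libraries came from the SPT5-AID derivative, in which the elongation factor SPT5 carries an auxin-inducible degron, and the labels name no auxin treatment, so both groups are read here as cells with the tag and an shRNA alone. The shRNAs were delivered by lentivirus with puromycin selection, and the sources used here do not say which ARMC5 construct was sequenced or whether the line is 1 clone. ARMC5 is an adaptor that brings Pol II to the CUL3 ubiquitin ligase. Each group had 3 libraries of polyadenylated RNA, and the comparison asks which transcripts differ when ARMC5 is lowered. The methods of the study count replicates as biological, whereas the labels number the libraries without naming cultures. P values set the difference between groups against the spread between these libraries.

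Transcription of protein-coding genes begins when TFIID binds a promoter and TFIIA, TFIIB, TFIIE, TFIIF and TFIIH assemble with Pol II into a preinitiation complex. Mediator bridges transcription factors at enhancers and this assembly, and its dissociable kinase module controls whether it can engage Pol II. These genes are used in essentially every cell type, and several have a close paralogue that is restricted to particular tissues.

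The 6 libraries held between 26201112 and 40866478 estimated reads, of which 2.96% to 3.04% fell on transcripts that could not be matched to a gene. ARMC5 served as a check of the labels. Its TMM-normalized CPM (reads scaled to library size and composition) were 10.8, 11.97 and 12.9 in shARMC5 replicates 1 to 3 and 23.0, 25.9 and 26.7 in the shNT replicates, a ratio of 0.471 with no overlap (log2 fold change -1.09, SE 0.080, adjusted P = 5.32e-07). Of 10 colon epithelial markers, 7 were tested, and their summed TPM (a level per transcript length) was 8016 to 8324 in shARMC5 and 7073 to 7571 in shNT cells. Within that list KRT8 and KRT18 were called higher and VIL1 lower, CDX1 was listed at 0, CEACAM5 averaged 0.157 TPM, and KRT20 was not analysed here. The summed TPM of 5 fibroblast and 4 endothelial markers reached at most 1.31 and 0.368 in any library, with COL3A1, CDH5 and KDR at 0. The part of the epithelial marker difference in the results below was not tested.

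In all, 4 of the 72 tested members passed the threshold (adjusted P under 0.1 in edgeR's quasi-likelihood test over all tested genes). TAF13 was higher in shARMC5 cells, and TAF1, MED12 and MED6 were lower. These are levels in bulk RNA, in which fewer cells of a kind and less RNA per cell cannot be told apart. The 4 calls are 5.56% of the members, and the same test called 7.75% of all 13737 tested genes, 4.44% higher and 3.30% lower. With DESeq2, 3 members were called, TAF1, TAF13 and MED12, beside 6.38% of all genes. An unadjusted P under 0.05 was found for 14 members, or 19.4%, beside 18.1% of all tested genes. Both shares of members were therefore near those of all genes. The shares to set beside the counts of single complexes below are 7.75% (edgeR), 6.38% (DESeq2) and 18.1% (unadjusted P under 0.05).

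Across the 72 members the log2 fold change was positive for 34 and negative for 38, with a median of -0.0099, beside -0.0014 over all tested genes. The median absolute log2 fold change was 0.063 for members and 0.078 for all tested genes. The 95% interval of the log2 fold change lay within 0.5 of 0 on either side for 70 members and within 0.25 for 55. The 3 shARMC5 libraries did not overlap the 3 shNT libraries in CPM for 15 of the 72 members, 6 above and 9 below, or 20.8%, whereas 23.4% of all tested genes showed such separation, 12.5% above and 10.9% below.

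**Figure D1:**
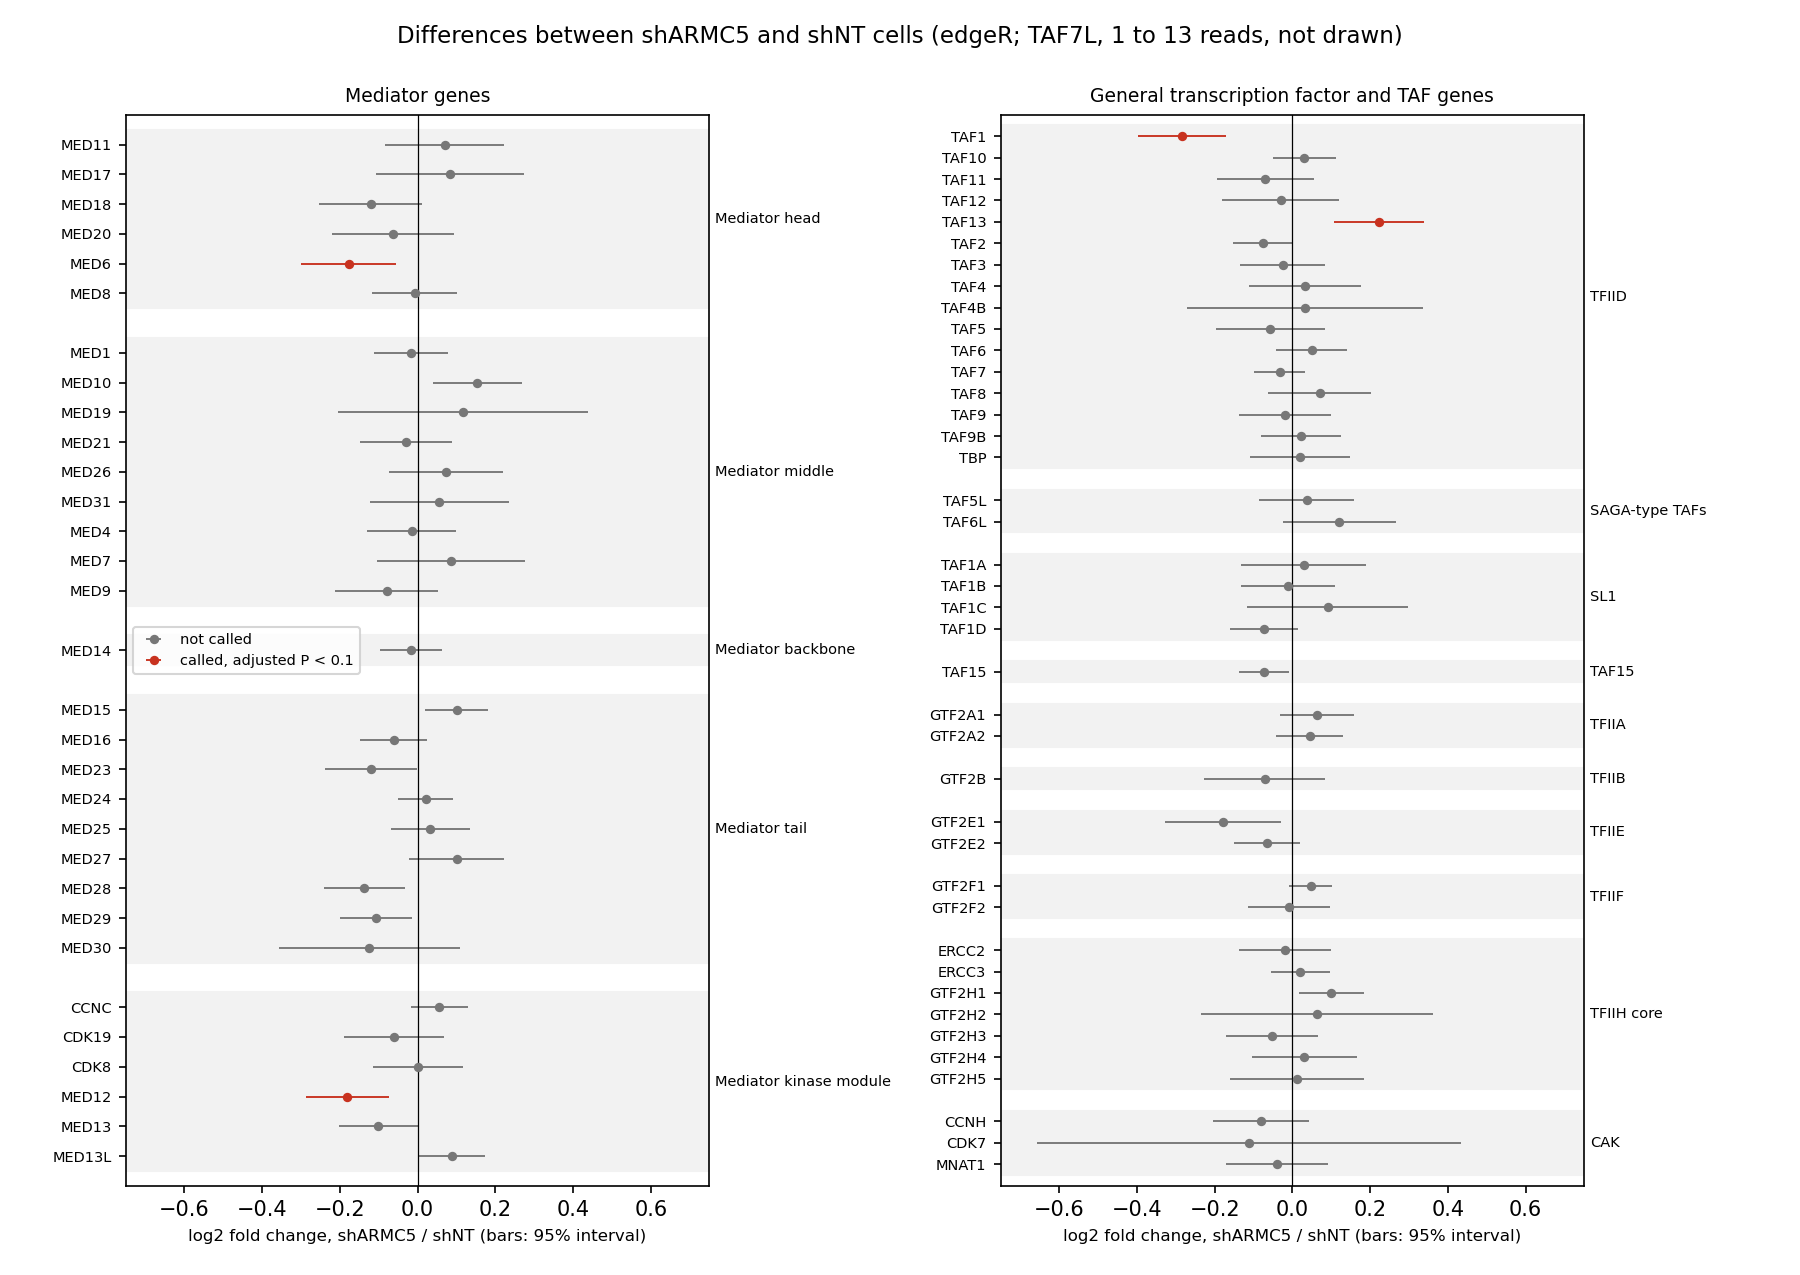
Log2 fold change (shARMC5 over shNT, edgeR) of 71 tested members on the horizontal axis, grouped by complex, with 95% intervals as bars. The 4 called genes (red) are TAF1 at -0.28, MED12 at -0.18, MED6 at -0.18 and TAF13 at 0.22, and the widest interval is that of CDK7; TAF7L, which had 1 to 13 reads, is not drawn.

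TAF1, the largest TFIID subunit, which contacts the promoter and carries bromodomains, lies on chrX:71366222-71532374 on the plus strand (GRCh38). Its level was 46.2, 48.1 and 41.5 CPM in shARMC5 replicates 1 to 3 and 57.4, 53.8 and 54.5 CPM in the shNT replicates. All shARMC5 libraries were below all shNT libraries. The means were 45.3 ± 3.39 and 55.2 ± 1.93 CPM (SD, n = 3 each), and the log2 fold change was -0.28 (SE 0.053, 95% interval -0.40 to -0.17, adjusted P = 0.00428).

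TAF13, a histone-fold subunit that pairs with TAF11 within TFIID, lies on chr1:109062496-109076012 on the minus strand. Its level was 39.7, 39.0 and 41.9 CPM in shARMC5 cells and 33.6, 36.2 and 33.4 CPM in shNT cells, again without overlap but in the opposite direction. The log2 fold change was 0.22 (SE 0.055, 95% interval 0.11 to 0.34, adjusted P = 0.0265), and without shNT replicate 1 it was 0.21 (adjusted P = 0.109). TAF11 itself was not called.

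MED12, which activates the kinase of the Mediator kinase module, lies on chrX:71118543-71144103 on the plus strand. Its level was 47.1, 44.9 and 45.1 CPM in shARMC5 cells and 54.6, 48.3 and 52.6 CPM in shNT cells. The groups did not overlap in CPM, and the log2 fold change was -0.18 (SE 0.050, 95% interval -0.29 to -0.074, adjusted P = 0.0499). Measured per length, however, MED12 was at 12.04, 11.1 and 11.7 TPM in shARMC5 and 15.6, 12.5 and 10.6 TPM in shNT cells, so that shNT replicate 3 fell below all shARMC5 libraries. The adjusted P was 0.184 and 0.125 without shARMC5 replicates 2 and 3, where the log2 fold change was -0.17 in each. It was 0.244 and 0.137 without shNT replicates 1 and 3, with log2 fold changes of -0.14 and -0.17.

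MED6, a Mediator head subunit, lies on chr14:70581257-70600690 on the minus strand. Its level was 30.6, 33.8 and 34.0 CPM in shARMC5 cells and 35.9, 37.0 and 38.4 CPM in shNT cells. All shARMC5 libraries were lower, and the log2 fold change was -0.18 (SE 0.058, 95% interval -0.30 to -0.055, adjusted P = 0.0948), close to the threshold. The call was absent with DESeq2 (log2 fold change -0.18, adjusted P = 0.156). It held without shARMC5 replicate 3 but not without any other library (log2 fold change -0.20 to -0.13, adjusted P = 0.134 to 0.283).

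**Figure D2:**
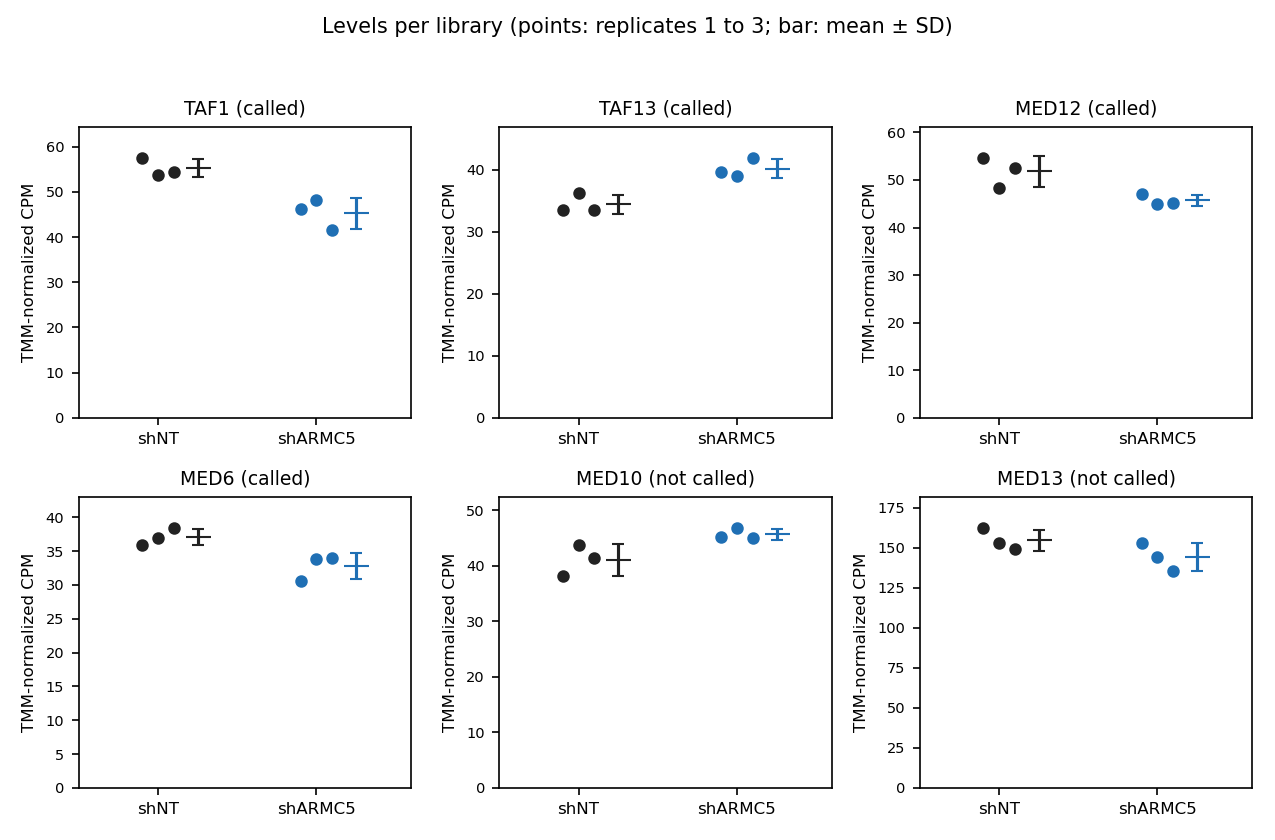
TMM-normalized CPM (vertical axis, from 0) of the 4 called members and of MED10 and MED13, with a point for each of the 3 libraries of a group and the mean ± SD beside them. TAF1, MED12 and MED6 points of shARMC5 lie below those of shNT, TAF13 and MED10 points lie above, and MED13 points overlap in part.

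The length of the transcripts assigned to a gene also entered the comparison. For TAF1 the mean effective length was 3723 bases in shARMC5 and 3385 bases in shNT cells, and the TPM was 16.1, 19.9 and 15.3 against 26.8, 21.9 and 21.1. With transcript length as an offset, the log2 fold change of TAF1 was -0.42 in both tools, with an adjusted P of 0.151 in edgeR and 0.00699 in DESeq2. With that offset edgeR called 0 members beside 1.71% of all genes, and DESeq2 called 3 members, TAF1, TAF13 and MED13, beside 4.13% of all genes. The edgeR log2 fold changes of TAF13 and MED6 hardly moved with the offset, at 0.23 (SE 0.065, adjusted P = 0.195) and -0.17 (SE 0.078, adjusted P = 0.409), while that of MED12 was -0.13 with a larger error (SE 0.11, adjusted P = 0.678). In DESeq2 with the offset the adjusted P was 0.0978 for TAF13, 0.419 for MED6 and 0.706 for MED12.

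The promoters of TAF1, TAF13 and MED12 are printed because these genes carried the calls made by both tools without the length offset. Each sequence runs from 250 bases before to 50 bases after the RefSeq start (GRCh38.p14), 5′ to 3′ on the gene's strand, at chrX:71366107-71366406 (plus), chr1:109075954-109076253 (minus) and chrX:71118346-71118645 (plus). Capitals mark the ETS letters CCGGAAG on either strand.
TAF1: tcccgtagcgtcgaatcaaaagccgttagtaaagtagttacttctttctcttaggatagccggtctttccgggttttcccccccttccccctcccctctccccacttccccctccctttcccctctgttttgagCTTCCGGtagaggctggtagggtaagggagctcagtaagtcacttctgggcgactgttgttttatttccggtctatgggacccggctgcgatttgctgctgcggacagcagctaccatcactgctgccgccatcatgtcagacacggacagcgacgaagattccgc
TAF13: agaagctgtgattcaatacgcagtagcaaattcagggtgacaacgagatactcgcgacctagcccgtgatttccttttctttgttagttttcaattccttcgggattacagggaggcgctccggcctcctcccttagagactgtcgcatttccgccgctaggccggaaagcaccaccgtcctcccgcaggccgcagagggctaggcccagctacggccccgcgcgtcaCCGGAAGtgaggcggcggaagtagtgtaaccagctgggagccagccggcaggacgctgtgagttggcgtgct
MED12: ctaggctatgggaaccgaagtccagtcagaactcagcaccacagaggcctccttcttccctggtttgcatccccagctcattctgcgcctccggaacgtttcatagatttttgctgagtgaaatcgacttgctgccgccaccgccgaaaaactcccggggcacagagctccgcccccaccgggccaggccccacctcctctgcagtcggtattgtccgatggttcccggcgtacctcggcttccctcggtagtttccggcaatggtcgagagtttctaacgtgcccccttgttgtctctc

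TAF1 and TAF13, which differed in opposite directions, each had 1 match to the ETS letters in this window, and MED12 had 0. RefSeq entries were matched for 62 members with 77 promoters. MED6 was among the 13 members without an entry. The ETS letters occurred in 26 of the 77 promoters, or 33.8%, beside 10.3% of all 35116 promoters and 16.5% of the 15228 promoters of tested genes. They stood in the promoters of ERCC3, GTF2A1, GTF2A2, GTF2F1, GTF2H1, MED11, MED15, MED17, MED18, TAF3, TAF9, TAF12 and all 4 SL1 genes, among others.

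Further motifs were searched on both strands, and no motif's letters contain those of another. The YY1 letters AAGATGGCG were in 8 member promoters (10.4%, beside 1.75% of all promoters and 3.33% of those of tested genes), namely in promoters of GTF2E1, MED1, MED16, MED18, MED25, TAF5 and TAF6. The GC box GGGCGG was in 58.4% (45.0% and 65.1%), CCAAT in 36.4% (34.6% and 34.6%) and TATAAA in 5.19% (11.5% and 6.48%). These matches describe letters in the window and not binding.

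Levels differed far more between members than between groups. Over all 6 libraries the median member was at 29.1 TPM, and the median tested gene was at 16.4 TPM. TAF10 was highest at 443 TPM, followed by TAF15 at 286, GTF2A2 at 240, GTF2F1 at 160 and TAF1D at 140 TPM. The lowest were MED12L at 0.191, TAF7L at 0.180 and TAF1L at 0.0117 TPM. Summed over all members, the level was 3357, 3401 and 3276 TPM in shARMC5 and 3442, 3417 and 3323 TPM in shNT cells, and these ranges overlapped.

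**Figure D3:**
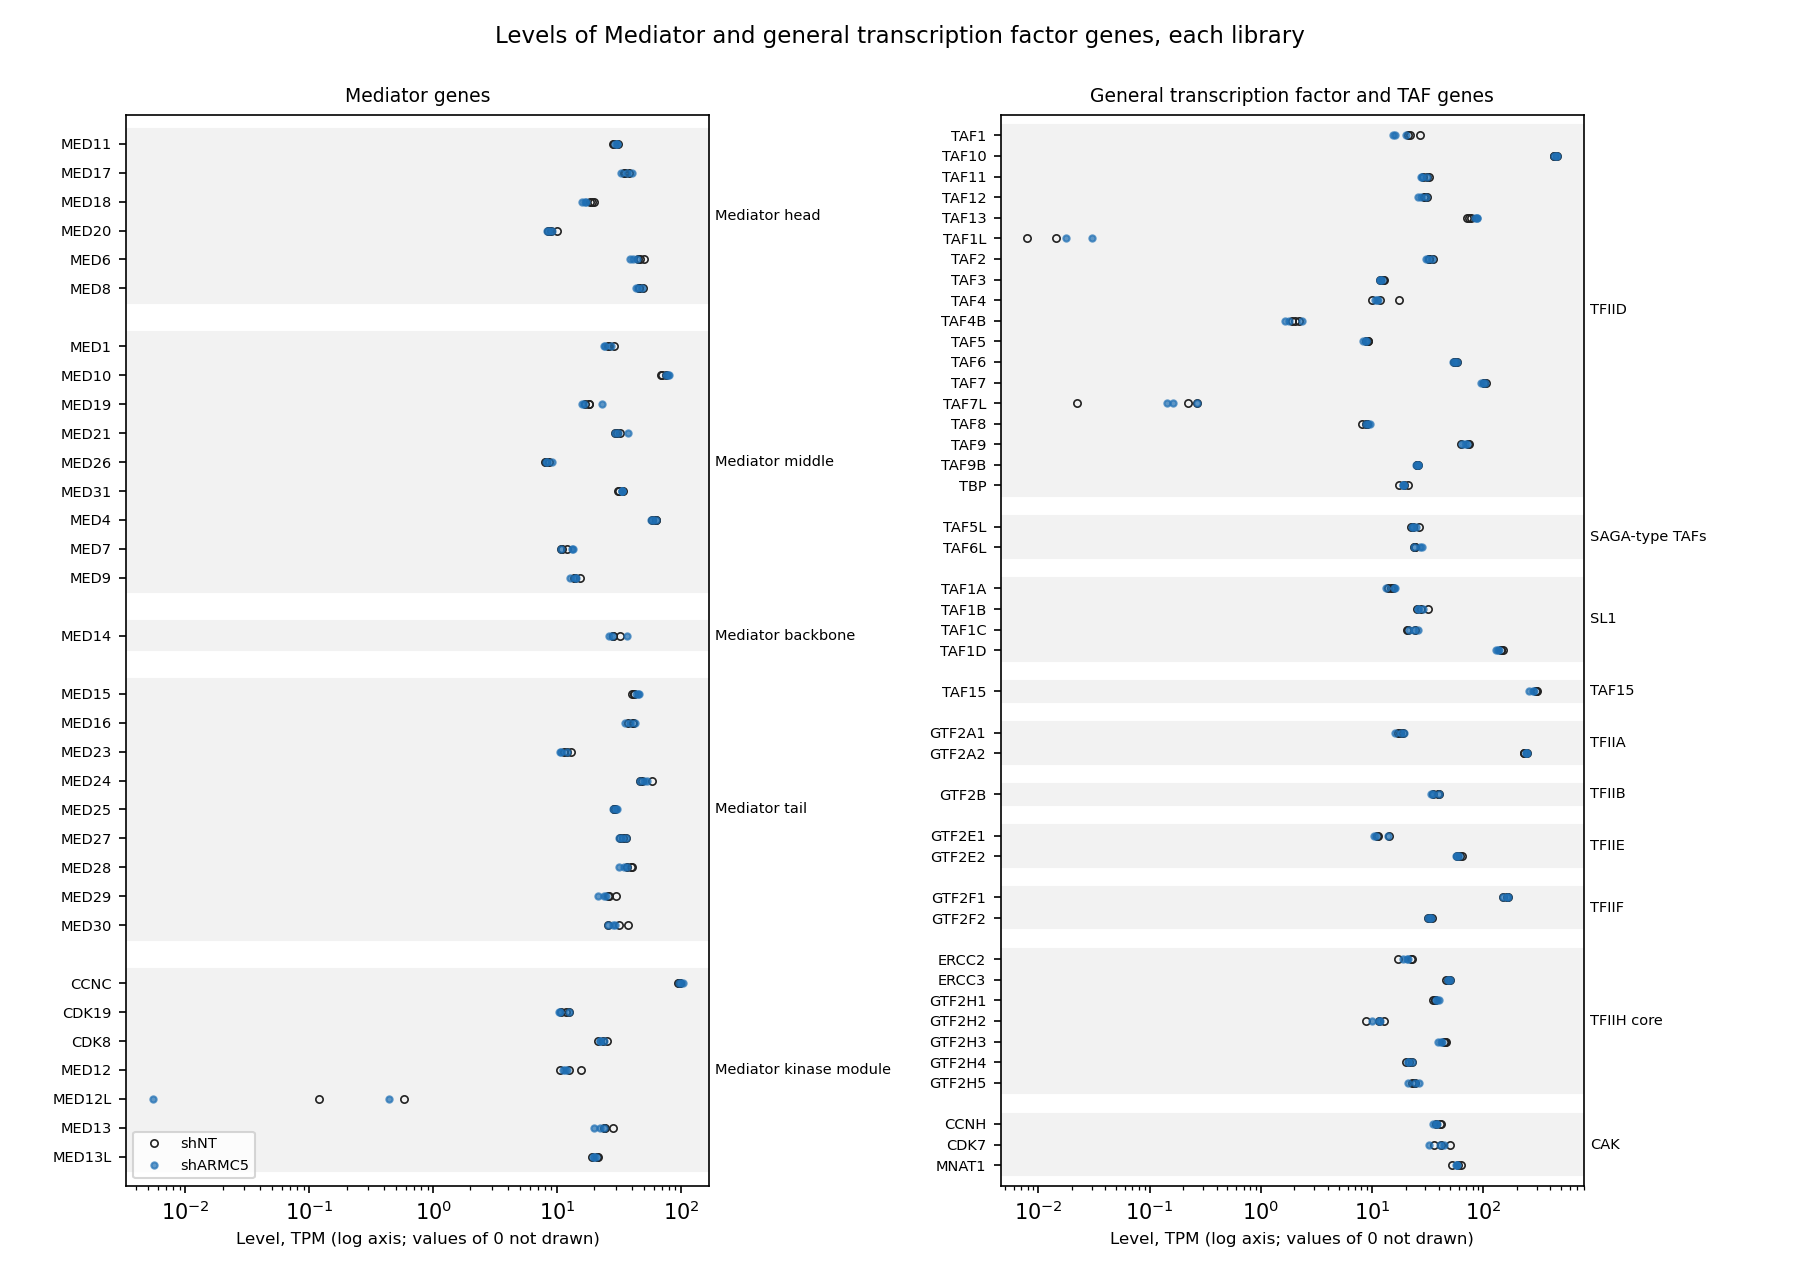
Level in TPM (horizontal log axis) of the 74 members with transcripts in each of the 6 libraries, open circles for shNT and filled circles for shARMC5, grouped by complex. Members span from TAF1L (mean 0.0117 TPM) to TAF10 (mean 443 TPM), and for most genes the circles of both groups lie on each other.

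The Mediator head, which contacts Pol II, was represented by MED6, MED8, MED11, MED17, MED18 and MED20, and 1 of these 6 genes was called. MED8 was highest, at 43.1, 48.5 and 44.8 TPM in shARMC5 and 46.2, 45.8 and 49.0 TPM in shNT cells. MED20, which forms a movable jaw with MED18, was lowest, at 8.56, 8.34 and 9.15 TPM against 10.03, 8.94 and 8.48 TPM. Both genes overlapped between groups, and log2 fold changes in the head ran from -0.18 (MED6) to 0.083 with a median of -0.036. MED18, like MED6, had all shARMC5 libraries below all shNT libraries but was not called. MED17 overlaps another annotated gene on its strand, so its reads could be shared.

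Of the 9 tested genes of the middle module (MED1, MED4, MED7, MED9, MED10, MED19, MED21, MED26 and MED31), edgeR and DESeq2 each called 0, and 1 had an unadjusted P under 0.05. That gene was MED10, also the highest of the module, at 78.4, 79.8 and 76.3 TPM in shARMC5 and 68.4, 75.3 and 69.7 TPM in shNT cells. In CPM it was 45.1, 46.8 and 45.1 against 38.1, 43.8 and 41.4, with all shARMC5 libraries above all shNT libraries (log2 fold change 0.15, SE 0.054, adjusted P = 0.128). Its log2 fold change was 0.20 without shNT replicate 2 (adjusted P = 0.0582) and 0.10 without shNT replicate 1 (adjusted P = 0.429). MED10 also passed the threshold in edgeR with genes of at least 1 count (adjusted P = 0.0695). MED26, through which Mediator contacts elongation factors, was lowest, at 9.06, 8.36 and 8.16 TPM against 8.56, 8.08 and 8.03 TPM, with overlapping groups. MED1, the subunit bound by nuclear receptors, was also not called. MED7 and MED26 each overlap another annotated gene on their strand.

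MED14, the backbone that joins head, middle and tail, was at 91.4, 91.8 and 88.3 CPM in shARMC5 and 91.2, 95.4 and 88.1 CPM in shNT cells. The groups overlapped, and the log2 fold change was -0.02 (SE 0.037, adjusted P = 0.870), a value that became 0.06 with the length offset of either tool. Per length it was at 27.8, 36.9 and 26.4 TPM against 32.2, 28.1 and 28.4 TPM.

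The tail, which receives signals from many transcription factors, had 9 tested genes (MED15, MED16, MED23, MED24, MED25, MED27, MED28, MED29 and MED30). Neither edgeR nor DESeq2 called any of them (0 each). An unadjusted P under 0.05 was found for 4 of these 9, MED15, MED23, MED28 and MED29, beside 18.1% of all tested genes. MED28 differed most, at 47.2, 49.5 and 44.8 CPM in shARMC5 and 54.2, 49.7 and 51.9 CPM in shNT cells. Its groups did not overlap by a narrow margin (log2 fold change -0.14, SE 0.049, adjusted P = 0.139). The adjusted P was 0.0941 without shNT replicate 2, 0.433 without shNT replicate 1 and 0.0912 with genes of at least 1 count. MED15, the subunit bound by SREBP factors, moved the other way, with a log2 fold change of 0.10 (SE 0.038, adjusted P = 0.162) from 86.8, 81.5 and 86.4 CPM against 77.3, 78.6 and 81.5 CPM.

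MED24 had the highest level of the tail, 52.8, 47.0 and 50.3 TPM in shARMC5 and 58.1, 46.6 and 48.2 TPM in shNT cells. MED23, a target of ELK1 and of the adenoviral E1A protein, had the lowest, 12.1, 10.8 and 10.5 TPM against 12.9, 11.99 and 11.4 TPM. The groups overlapped for both genes. Log2 fold changes of the tail ran from -0.14 to 0.10 with a median of -0.062.

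The kinase module holds CDK8 or CDK19, cyclin C (CCNC), MED12 or MED12L, and MED13 or MED13L, the subunit that tethers the module to Mediator. Of its 6 tested genes 1 was called, MED12. CCNC was highest, at 100.3, 103 and 96.1 TPM in shARMC5 and 97.8, 95.2 and 95.4 TPM in shNT cells, with overlap. MED12L was nearly absent: it had 0 to 7 reads in a library, and its TPM was 0, 0.443 and 0.00543 in shARMC5 and 0.121, 0.578 and 0 in shNT cells.

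MED13 and MED13L had log2 fold changes of opposite sign. MED13 was at 153, 144 and 135 CPM in shARMC5 and 162, 153 and 149 CPM in shNT cells (log2 fold change -0.10, SE 0.046, adjusted P = 0.282), and the groups overlapped. MED13L was at 103, 97.6 and 93.3 CPM against 95.3, 91.7 and 89.3 CPM (log2 fold change 0.09, SE 0.040, adjusted P = 0.259), also with overlap. With the length offset in DESeq2, MED13 passed the threshold at -0.20 (adjusted P = 0.0989) and MED13L was at -0.02. MED13 was also called with genes of at least 1 count (adjusted P = 0.0456) and without shARMC5 replicate 1 (log2 fold change -0.14, adjusted P = 0.0675), and its log2 fold change was -0.06 without shARMC5 replicate 3 or shNT replicate 1. MED13L was at 0.05 without shARMC5 replicate 1. In TPM, MED13 was at 24.0, 22.1 and 19.8 against 28.4, 24.1 and 24.2, and MED13L at 20.4, 19.8 and 19.6 against 21.3, 21.2 and 19.0.

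The balance within each library was then taken as the ratio of paralogue levels. The ratio of MED13L to MED13 in TPM was 0.852, 0.894 and 0.989 in shARMC5 and 0.749, 0.880 and 0.786 in shNT cells, with means of 0.912 ± 0.070 and 0.805 ± 0.067 (SD, n = 3). The groups overlapped, and the log2 difference of 0.18 gave P = 0.2 in a two-sided exact permutation test (adjusted P = 0.6 over 6 pairs). In reads the same ratio was 0.671, 0.677 and 0.690 against 0.588, 0.600 and 0.599, where the groups did not overlap (exact permutation P = 0.1, the smallest that 3 against 3 libraries allow, adjusted P = 0.6). No ratio could therefore pass the threshold after adjustment, and the ratios are given as a description.

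CDK8 and CDK19 are alternative kinases, and the ratio of CDK19 to CDK8 was 0.559, 0.470 and 0.442 in shARMC5 and 0.546, 0.497 and 0.450 in shNT cells. These ranges overlapped almost wholly, with a log2 difference of -0.02 in TPM (exact permutation P = 0.9) and -0.06 in reads (exact permutation P = 0.6). CDK8 was at 22.3, 22.1 and 23.9 TPM against 21.5, 25.2 and 23.6 TPM. CDK19 was at 12.5, 10.4 and 10.6 TPM against 11.7, 12.5 and 10.7 TPM, and was lower than CDK8 in all 6 libraries.

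TFIID had 17 tested genes, TBP and TAF1 to TAF13 with TAF4B, TAF7L and TAF9B, of which TAF1 and TAF13 were called. TAF10, a histone-fold subunit shared with SAGA, was at 444, 463 and 435 TPM in shARMC5 and 428, 454 and 432 TPM in shNT cells. TBP, the subunit that bends TATA-type DNA, was not called and overlapped between groups. TAF2 lay below and TAF8 above in all shARMC5 libraries, without a call. Log2 fold changes of the complex had a median of -0.019 and a median absolute value of 0.033.

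TAF7, an inhibitor of TAF1 activity, was at 98.4, 103 and 95.5 TPM in shARMC5 and 106, 101 and 100 TPM in shNT cells. Its germ cell relative TAF7L was at 0.143, 0.161 and 0.265 TPM against 0.265, 0.0223 and 0.223 TPM, from 1 to 13 reads in a library. TAF1L, a testis retrocopy of TAF1, was at 0.0303, 0.0178 and 0 TPM against 0, 0.0143 and 0.00794 TPM, from 0 to 4 reads. At this depth no difference between the groups was detectable for either gene, and the TAF1L value is uncertain because Salmon divides reads between transcripts as similar as those of TAF1L and TAF1.

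TAF4 was at 10.7, 11.04 and 11.2 TPM in shARMC5 and 17.4, 9.93 and 11.7 TPM in shNT cells, with shNT replicate 1 well above the rest. In CPM no library of TAF4 stood apart, at 27.4, 28.8 and 29.9 against 27.0, 26.1 and 31.1, and its log2 fold change was 0.03 without and -0.21 with the length offset in edgeR (adjusted P = 0.861 and 0.675). TAF4B was at 1.66, 2.36 and 1.78 TPM against 2.02, 2.18 and 1.92 TPM. The ratio of TAF4B to TAF4 averaged 0.176 ± 0.033 and 0.167 ± 0.052 (SD, n = 3), which overlapped (exact permutation P = 1).

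TAF9 and TAF9B share a place in TFIID. TAF9 was at 64.7, 68.5 and 70.5 TPM in shARMC5 and 74.8, 72.5 and 62.8 TPM in shNT cells, and TAF9B was at 25.9, 25.8 and 24.98 against 25.4, 25.8 and 25.1 TPM. TAF9B varied little over all 6 libraries, and the ratio of TAF9B to TAF9, 0.377 ± 0.023 and 0.365 ± 0.031 (SD, n = 3), overlapped between groups (exact permutation P = 0.7).

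TAF5L and TAF6L replace TAF5 and TAF6 in SAGA-type complexes, which acetylate histones. edgeR and DESeq2 each called 0 of these 2 genes, and 0 had an unadjusted P under 0.05. TAF5L was at 24.99, 22.9 and 23.1 TPM in shARMC5 and 26.5, 23.2 and 22.3 TPM in shNT cells, above TAF5, which was at 8.70, 8.79 and 8.34 against 8.82, 9.23 and 9.11 TPM. The ratio of TAF5L to TAF5 was 2.75 ± 0.14 and 2.66 ± 0.30 (SD, n = 3), the only tested pair in which the variant exceeded its relative (exact permutation P = 0.7). TAF6L was at 26.6, 23.7 and 27.9 TPM against 24.2, 23.8 and 24.3 TPM (log2 fold change 0.12, SE 0.069, adjusted P = 0.383). Without shARMC5 replicate 3 the log2 fold change of TAF6L was 0.04, and without shARMC5 replicate 2 it was 0.18.

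TAF6 was at 55.5, 53.1 and 57.3 TPM in shARMC5 and 58.0, 54.3 and 55.0 TPM in shNT cells. The ratio of TAF6L to TAF6 in TPM was 0.480, 0.446 and 0.487 against 0.418, 0.438 and 0.441, without overlap (exact permutation P = 0.1, adjusted P = 0.6). In reads that separation was not seen, at 0.362, 0.382 and 0.418 against 0.358, 0.366 and 0.384 (exact permutation P = 0.5).

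SL1 is the TBP-containing factor of RNA polymerase I and contains TAF1A, TAF1B, TAF1C and TAF1D. Neither tool called any of the 4 (0 each), and 0 had an unadjusted P under 0.05. TAF1D was highest, at 136, 128 and 139 TPM in shARMC5 and 149, 144 and 143 TPM in shNT cells, where the TPM values did not overlap although the CPM values did. TAF1A was lowest, at 15.6, 16.1 and 13.3 TPM against 13.9, 15.4 and 14.7 TPM. TAF1C had the largest log2 fold change of the group, 0.09 (SE 0.090, adjusted P = 0.671), from 41.5, 39.7 and 45.7 CPM against 38.1, 36.0 and 45.0 CPM. That value ranged from 0.02 without shNT replicate 2 and 0.03 without shARMC5 replicate 3 to 0.14 without shARMC5 replicate 2 and 0.19 without shNT replicate 3.

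TAF15, an RNA-binding FET protein found with part of TFIID, was at 284, 281 and 259 TPM in shARMC5 and 303, 295 and 294 TPM in shNT cells. In CPM it was 407, 399 and 378 against 403, 421 and 424, with overlap (log2 fold change -0.07, SE 0.030, adjusted P = 0.198). The 95% interval of that change was -0.14 to -0.010. In TPM, unlike CPM, the groups did not overlap.

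TFIIA, which steadies TBP on DNA, is encoded here by GTF2A1 and GTF2A2, and TFIIB, the bridge between TBP and Pol II, by GTF2B. Of the 7 genes of TFIIA, TFIIB, TFIIE and TFIIF, edgeR and DESeq2 each called 0, and 1 had an unadjusted P under 0.05. GTF2A2 was at 242, 245 and 243 TPM in shARMC5 and 231, 246 and 231 TPM in shNT cells. GTF2A1 was at 19.2, 18.2 and 16.1 TPM against 18.9, 17.9 and 17.1 TPM (log2 fold change 0.06, SE 0.045, adjusted P = 0.503). Per length the small subunit thus had the higher level by far, and both genes overlapped between groups. In CPM, however, the means over all 6 libraries were 62.8 for GTF2A2 and 49.1 for GTF2A1. The mean effective length of GTF2A2 was 366 bases in shARMC5 and 371 bases in shNT cells. That of GTF2A1 was 3943 and 3790 bases. With the length offset the log2 fold change of GTF2A1 was 0.01 in both tools.

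GTF2B was at 30.5, 34.1 and 30.5 CPM in shARMC5 and 29.7, 34.5 and 35.9 CPM in shNT cells (log2 fold change -0.07, SE 0.073, adjusted P = 0.671). When unmatched transcripts were added to the gene listed before them, the log2 fold change was 0.11. It was -0.04 and -0.13 without shARMC5 replicates 1 and 2, and -0.15 and -0.02 without shNT replicates 1 and 3. Per length GTF2B was at 35.3, 39.8 and 33.9 TPM against 34.9, 39.2 and 40.0 TPM, with overlap in both units.

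TFIIE recruits TFIIH. GTF2E1 had the lowest P of these 7 genes, at 20.1, 19.4 and 17.1 CPM in shARMC5 and 21.3, 20.9 and 22.1 CPM in shNT cells. The groups did not overlap (log2 fold change -0.18, SE 0.070, adjusted P = 0.178), but per length they did, at 10.5, 14.0 and 10.9 against 11.3, 11.1 and 14.1 TPM. With the length offset its log2 fold change was -0.03 in both tools. GTF2E2, its partner, was at 56.2, 59.9 and 57.3 TPM against 64.6, 61.6 and 57.5 TPM.

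TFIIF binds Pol II directly and has subunits GTF2F1 and GTF2F2. GTF2F1 was at 234, 231 and 234 CPM in shARMC5 and 227, 226 and 224 CPM in shNT cells, with all shARMC5 libraries above but a log2 fold change of 0.05 (SE 0.026, adjusted P = 0.362). Its TPM values overlapped, at 162, 167 and 151 against 166, 163 and 149, and with the length offset its log2 fold change was 0.02 in both tools. GTF2F2 was at 33.4, 31.8 and 33.1 TPM against 33.0, 34.5 and 32.0 TPM.

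TFIIH opens DNA at the start site and takes part in nucleotide excision repair through its core (ERCC2, ERCC3, GTF2H1, GTF2H2, GTF2H3, GTF2H4 and GTF2H5). edgeR and DESeq2 each called 0 of the 7 core genes, and 1 had an unadjusted P under 0.05. That gene was GTF2H1, at 62.4, 60.5 and 63.1 CPM in shARMC5 and 57.4, 59.2 and 56.8 CPM in shNT cells, with no overlap (log2 fold change 0.10, SE 0.040, adjusted P = 0.182). In TPM it was 40.1, 37.7 and 38.0 against 36.7, 36.4 and 35.1.

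ERCC3, the translocase XPB, was the highest core gene, at 50.4, 48.2 and 47.6 TPM in shARMC5 and 50.2, 48.4 and 46.1 TPM in shNT cells. GTF2H2 was the lowest, at 11.5, 10 and 11.8 TPM against 8.72, 11.4 and 12.7 TPM. Its value is uncertain, because reads can be divided with the near-identical copy GTF2H2C. That copy was at 14.9, 15.4 and 13.2 CPM in shARMC5 and 16.3, 16.7 and 22.3 CPM in shNT cells, without overlap. Its log2 fold change was -0.34 (SE 0.13, edgeR adjusted P = 0.216, not called), whereas that of GTF2H2 was 0.06 (SE 0.13).

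The CAK phosphorylates the carboxyl-terminal domain of Pol II and consists of CDK7, cyclin H (CCNH) and MNAT1. All 3 were tested, edgeR and DESeq2 each called 0, and 0 had an unadjusted P under 0.05. CDK7 was at 35.0, 25.9 and 33.9 CPM in shARMC5 and 28.3, 32.7 and 41.2 CPM in shNT cells. This spread was the widest among the well-expressed members with a log2 fold change of -0.11 (SE 0.20, 95% interval -0.66 to 0.43), so a change of either sign was not detectable. Without shARMC5 replicate 2 the value was 0.02, and without shNT replicate 3 it was 0.05.

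In TPM, CDK7 was at 44.2, 32.3 and 40.9 in shARMC5 and 36.3, 41.5 and 49.98 in shNT cells. MNAT1, the assembly factor, was at 57.1, 57.5 and 57.2 TPM against 52.6, 63.2 and 59.5 TPM. CCNH was at 38.0, 37.3 and 35.3 TPM against 41.1, 37.5 and 41.1 TPM. The groups overlapped for all 3 genes.

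Individual transcripts of the members were tested as well as gene sums. Of 302 member transcripts tested, 0 were called, beside 0.00771% of 51892 transcripts tested, and 10 (3.31%) had an unadjusted P under 0.05, beside 4.80% of all tested transcripts. Transcripts were tested with edgeR alone. The leading transcript held over 50% of the gene's TPM for 53 of 72 members and over 90% for 20, and it was the MANE Select transcript for 53. It was annotated as nonsense-mediated decay for GTF2H2, MED17, TAF1D and TAF4B, and as retained intron for MED28 and TAF1C. The TPM sums of these genes therefore include transcripts not annotated as protein-coding.

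For TAF1, the MANE Select transcript ENST00000423759.5 was assigned 0, 760 and 206 reads in shARMC5 and 211, 388 and 592 reads in shNT cells. The transcript ENST00000373790.8 of similar length was assigned 978, 858 and 616 against 1263, 834 and 609 reads. Libraries of the same group thus differed strongly in the split, while the gene sum separated the groups.

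For MED12, the 6925-base MANE Select transcript ENST00000374080.8 was assigned 430, 755 and 237 reads in shARMC5 and 922, 68 and 321 reads in shNT cells. The 6977-base transcript ENST00000333646.10 was assigned 903, 990 and 817 against 814, 1451 and 1149 reads. As for TAF1, the split varied within groups.

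For MED6, the leading transcript ENST00000430055.6 was assigned 600, 829 and 572 reads in shARMC5 and 723, 805 and 730 reads in shNT cells and did not carry a call. TAF13 had 2 transcripts in nearly the same proportion in all libraries, with ENST00000338366.5 at 59.2, 55.1 and 58.8 TPM against 49.2, 52.1 and 49.7 TPM and ENST00000461096.6 at 27.6, 28.1 and 28.8 TPM against 25.01, 25.8 and 20.9 TPM. Both TAF13 transcripts were higher in all shARMC5 libraries.

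**Figure D4:**
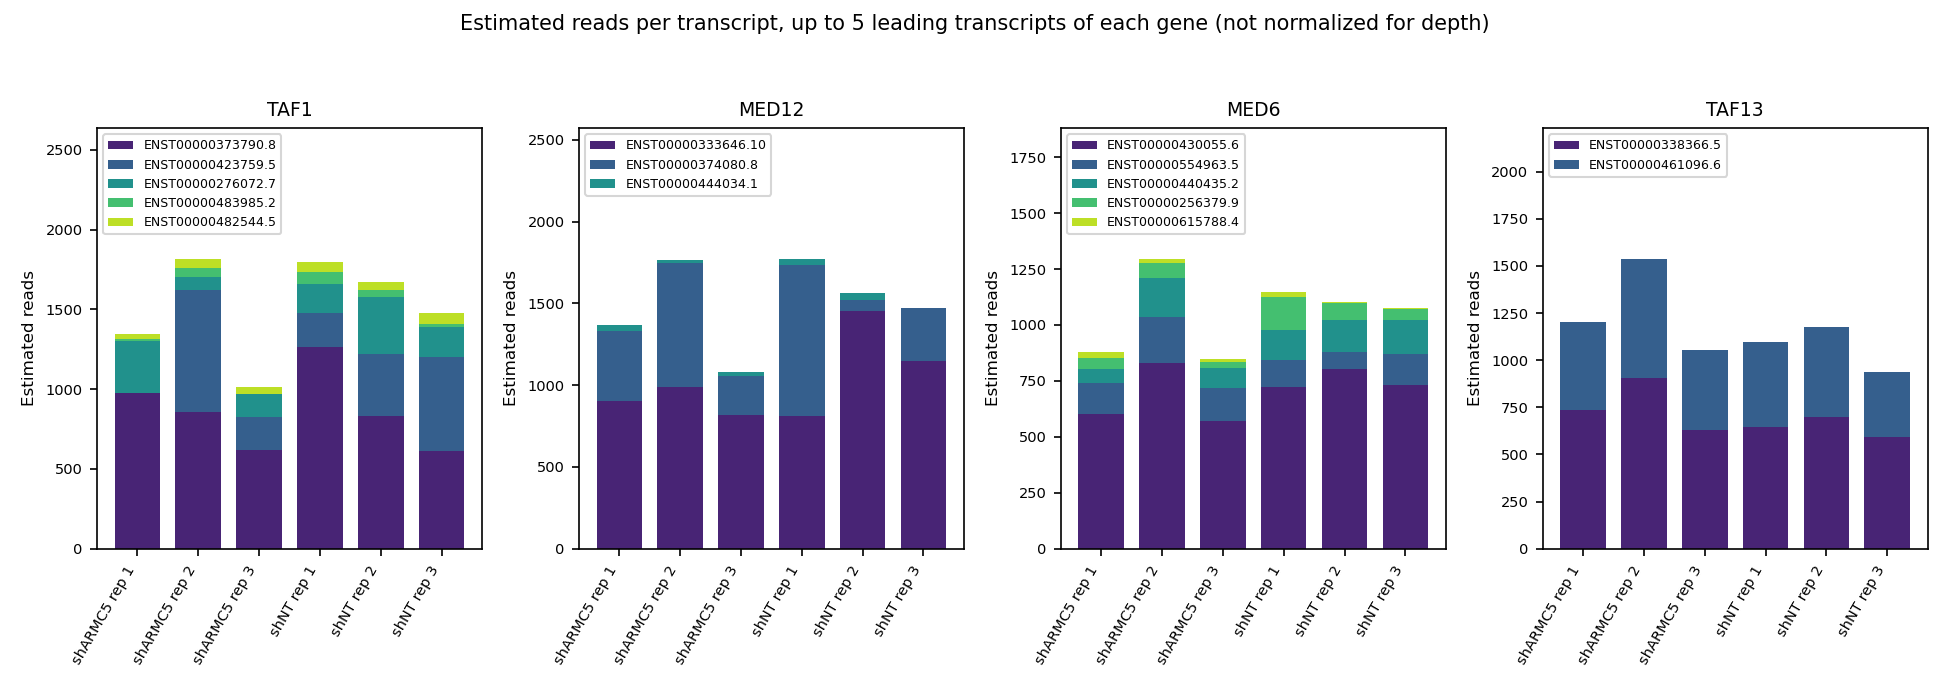
Estimated reads (vertical axis, not scaled for depth) of up to 5 leading transcripts of the called members, stacked for each of the 6 libraries. The TAF13 bars divide in nearly the same proportion everywhere, whereas the split of TAF1 and MED12 reads changes between libraries of 1 group, as for ENST00000374080.8 with 922, 68 and 321 reads in shNT replicates 1 to 3.

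Among 302 tested transcripts, the lowest P was that of ENST00000604841.5 of TAF15 (log2 fold change -0.19, SE 0.028, adjusted P = 0.242), chosen after its value was seen. It was at 70.0, 69.3 and 70.3 TPM in shARMC5 and 85.0, 80.7 and 77.9 TPM in shNT cells. The MANE Select transcript ENST00000605844.6 of TAF15 was at 207, 201 and 181 against 196, 206 and 201 TPM, with overlap.

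Genes that work with the members were taken from a list of 48, chosen by role, of which 44 were tested and 1 was called, or 2.27%, beside 7.75% of all tested genes. It comprised 21 tested SAGA and ATAC partners, 7 TBP relatives and regulators, 15 Pol III factors and 1 Pol I factor. The called gene was KAT2B, the acetyltransferase PCAF of SAGA-type complexes, at 58.3, 54.9 and 55.8 CPM in shARMC5 and 50.5, 49.1 and 49.0 CPM in shNT cells. All shARMC5 libraries were above, and the log2 fold change was 0.18 (SE 0.042, adjusted P = 0.0177). With the length offset the log2 fold change of KAT2B was again 0.18 in both tools, with a larger error, and the call was lost (adjusted P = 0.213 in edgeR and 0.135 in DESeq2). With that offset edgeR called 1 of the 44 genes, beside 1.71% of all tested genes, and DESeq2 called 2, beside 4.13%. TADA2A, a SAGA and ATAC adaptor, was called lower by both (log2 fold change -0.89, adjusted P = 0.0553 in edgeR and 0.000175 in DESeq2), and without the offset it was at -0.12 (adjusted P = 0.774). Its level was 4.29, 5.65 and 4.99 TPM in shARMC5 and 9.51, 7.57 and 11.03 TPM in shNT cells, without overlap, whereas in CPM it was 10.4, 11.9 and 11.5 against 9.30, 12.6 and 15.1, with overlap. GTF3C2, a TFIIIC subunit, was called higher by DESeq2 (0.17, adjusted P = 0.0266), at 58.7, 59.6 and 57.2 TPM against 56.0, 50.1 and 52.0 TPM. The median log2 fold change of the 44 genes was 0.0021 without the offset.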

How the data were processed

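Polyadenylated RNA of 3 shARMC5 and 3 shNT libraries was trimmed with cutadapt 4.2 and quantified with Salmon 1.9.0, per the labels, on hg38. Per the file headers, the deposited values per transcript are estimated counts (estimated reads), TPM and effective length in bases. The transcript set is not given in the sources used here. Transcripts were matched without version to GENCODE on GRCh38 (165533 of 177456) and summed per gene. Estimated counts were rounded, and genes reaching 10 counts in 3 or more libraries entered edgeR 4.0.16 in R 4.3.3 (TMM, robust quasi-likelihood F test, condition only, Benjamini-Hochberg over all 13737 genes). Calls used an adjusted P under 0.1, the threshold in the methods of the study. The study applied that threshold to DESeq2 after summarizing with tximeta, so the test behind the calls here differs from its own. The common biological coefficient of variation was 0.0643. TMM factors were 0.992 to 1.02. DESeq2 1.42.0, other scalings, filters, transcript matching, length offsets, a replicate block and leaving out each library were alternatives. Paralogue ratios used scipy 1.17.1.

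On simulated counts of the shARMC5 and shNT libraries over 13542 genes, 84.5% of 200 genes changed by 1 log2 unit were recovered and 16.3% of calls were false. Changes as small as those of the called members (log2 fold change -0.28 to 0.22) were not simulated, so their recovery is not known. The share of false calls was above the nominal level of the threshold (adjusted P under 0.1). Standard errors and intervals rest on the spread between libraries. Strand handling is not given in the sources used here, so reads of overlapping genes may be shared.

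Members and lists were chosen with earlier results of these data known. Values per library are given for called members, for the highest, lowest and most changed member of each complex, for both genes of paralogue pairs, for members called with a length offset alone, for called genes of the pathway list and for ARMC5. Other genes given with values of their own were chosen after their values were seen. A further marker list is not reported here.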

Additional observations from a re-analysis of the deposited data

How the results depend on the processing

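TAF1 was called in 13 of 15 alternatives, TAF13 in 12 of 14, MED12 in 8 of 15, MED6 in 6 of 15 and ARMC5 in all 15. Members called higher (1) and lower (3) numbered 2 and 5 with genes of at least 1 count (1537 genes in all, 7.18% of 21413 tested), 0 and 0 with the length offset in edgeR, and 0 and 0 with transcripts of the same version and length only, where TAF13 could not be fitted and the log2 fold change of MED12 was 0.04 (SE 0.909). All genes called were 1064, and 235 with the length offset in edgeR, 568 with it in DESeq2, 339 with same version and length only, and 676 at adjusted P under 0.05. Leaving out each library gave 0 to 2 members higher, 1 to 3 lower and 536 to 1085 genes in all. Without shNT replicate 1, 0 members were called higher and 1 lower, and 1 was called lower without shARMC5 replicate 2 or shNT replicate 3. Without shNT replicate 2, 2 were called higher. The cause was not tested. DESeq2 size factors, library size alone, DESeq2 and added unmatched transcripts gave 1 member higher and 2 or 3 lower. In that order they called 1050, 953, 877 and 1100 genes in all. With a length offset the log2 fold change of 10 members changed sign, none of them among the 4 called, including TAF4 (0.03 to -0.21 in edgeR) and MED21 (-0.03 to 0.10). Besides MED12, reversals among members whose fold change is given singly were TAF4 (above), MED14 (0.06 and 0.06 with the offsets, and -0.04 to 0.01 leaving out a library), MED13L (-0.02 and -0.02 with the offsets), GTF2B (0.11 with unmatched transcripts added) and CDK7 (-0.23 to 0.05 leaving out a library). The TAF4B to TAF4 log2 ratio difference was -0.01 in reads and 0.11 in TPM, and the SL1 sum differed by -0.02 in CPM and by -0.07 in TPM.

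Replicate numbers shared by the groups were not taken to pair the libraries, since correlations of deviations at equal numbers were 0.00654, 0.03 and 0.0586. The shARMC5 replicate 1 correlated best with shNT replicate 2 (0.0254), whereas shARMC5 replicates 2 and 3 correlated best with the shNT library of their own number. With the replicate block 4 members were called higher (TAF13, MED10, MED15 and MED13L), 5 lower (TAF1, MED12, MED6, MED13 and MED28) and 1766 genes in all, 12.9% of those tested. Depth limits TAF1L, TAF7L and MED12L, which had at most 4, 13 and 7 reads in a library.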

Other observations

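MED12 and TAF1 lie near each other on the X chromosome, with 222119 bases between the end of MED12 and the start of TAF1. The window around them was chosen after their values were seen, so no test was made of it. From 100000 bases before MED12 to 100000 bases after TAF1 (chrX:71018543-71632374, GRCh38), 11 genes were tested. MED12 and TAF1 defined the window. Of the other 9 tested genes, 2 were called lower in shARMC5 cells (ZMYM3 and OGT), 1 was called higher (IL2RG) and 6 were not called, and over all tested genes 3.30% were called lower and 4.44% higher.

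ZMYM3, which encodes a zinc finger protein, was at 37.4, 37.9 and 41.6 CPM in shARMC5 and 48.6, 43.5 and 45.6 CPM in shNT cells (log2 fold change -0.24, SE 0.056, edgeR adjusted P = 0.0210). OGT, the enzyme that attaches O-GlcNAc to proteins, was at 107, 101 and 102 CPM against 118, 106 and 120 CPM, with overlap (log2 fold change -0.15, SE 0.043, adjusted P = 0.0610). NONO, between ZMYM3 and TAF1, was at 657, 657 and 650 CPM against 651, 665 and 641 CPM (log2 fold change 0.01, SE 0.025). IL2RG had only 5 to 43 reads in a library, at 1.22, 1.09 and 1.07 CPM against 0.184, 0.709 and 0.178 CPM (log2 fold change 1.63, SE 0.46, adjusted P = 0.0540). With the length offset the adjusted P was 0.301 in edgeR and 0.236 in DESeq2 for ZMYM3, 0.591 and 0.529 for OGT, and 0.207 in edgeR for IL2RG, so these calls were lost, although the edgeR log2 fold changes with the offset were -0.19, -0.15 and 1.599. Whether these genes share anything beyond their position was not tested.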
